A study of Mus musculus with 12 samples.

Results

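A set of 10 immediate early and MAPK phosphatase genes was followed in gamma delta T cells from skin-draining lymph nodes of C57BL/6 mice. They were taken by symbol from the deposited table: the AP-1 subunits Fos, Fosb, Jun, Junb and Jund, the early response genes Ier2, Ier5 and Egr1, and the dual-specificity phosphatases Dusp1 and Dusp2. All 10 had 1 line each among 45796 genes, and 6 of them, averaging at least 5 across libraries, were among the 1571 genes tested. The cells carried the Vg4 and Vd4 receptor chains, and 4 groups of 3 libraries were made, split by genotype and by skin cream. The groups were NF-kB1-deficient mice given imiquimod cream, wild-type mice given imiquimod cream, NF-kB1-deficient mice given sham cream and wild-type mice given sham cream. Imiquimod activates a Toll-like receptor and inflames mouse skin, and NF-kB1 is the p105 precursor of the p50 subunit of NF-kB. Which part of Nfkb1 is altered, and in which cells, is not labelled. The sources used here give no dose, no days of treatment and no age of the mice.

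Immediate early genes are transcribed within minutes of a signal, without new protein synthesis. In T cells the antigen receptor and cytokines act through the MAP kinases ERK, JNK and p38 on SRF, ETS and CREB factors already bound at these genes. Fos and Jun family proteins pair to form AP-1, and the dual-specificity phosphatases remove phosphate from MAP kinases and so limit the same signal. Their transcripts are short-lived, and dissociating a tissue into cells is itself known to raise them.

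In wild-type cells Dusp2 and Ier5 were called lower under imiquimod, although Ier5 was high, at 34.7, in wild-type imiquimod replicate 2. Within imiquimod, Dusp2 was called higher in NF-kB1-deficient than in wild-type cells. These calls depended on the settings and were made in 11, 10 and 8 of 20 alternatives. The summed normalized value of the 10 genes was 84.9, 173 and 147 in NF-kB1-deficient imiquimod libraries, 10.5, 66.8 and 32.7 in wild-type imiquimod libraries, 103, 101 and 172 in NF-kB1-deficient sham libraries and 127, 137 and 178 in wild-type sham libraries. All 3 wild-type imiquimod libraries lay below all 9 others, as the plot of summed values by library shows. This was not particular to the 10 genes: the summed T cell markers and feedback regulators, given below, were also lowest in these 3 libraries. Those of the other AP-1 genes and of the heat shock genes were highest there, and the remaining pathway lists overlapped. The normalized value is the authors' log2 normalized read count taken back to the linear scale.

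**Figure D1:**
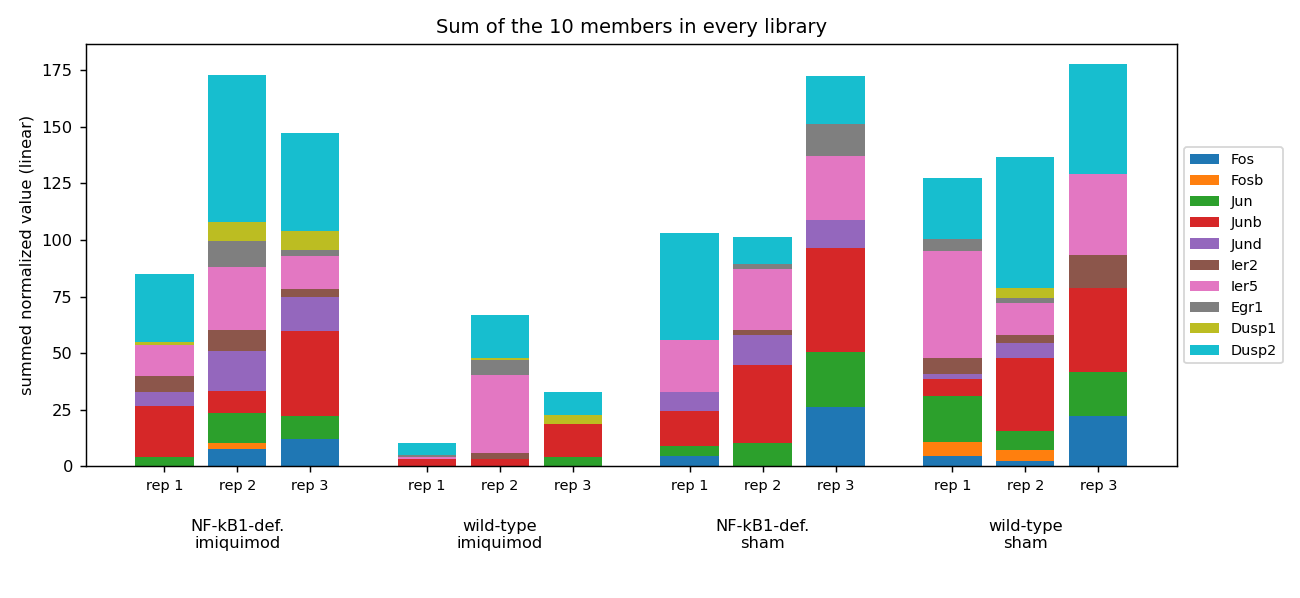
Stacked bars of the normalized value (linear scale) of the 10 genes in each of the 12 libraries, by group, with 1 colour per gene. The 3 wild-type imiquimod libraries stand at 10.5 to 66.8, below the lowest of the other 9 libraries (84.9).

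Depth was low: the estimate per library ran from 20507 to 69454 reads, the median was 35383, and the lowest was wild-type imiquimod replicate 3. Estimates were 67043, 45957 and 51154 in NF-kB1-deficient imiquimod libraries and 35155, 35611 and 20507 in wild-type imiquimod libraries, without overlap. In sham libraries they were 47412, 29115 and 27121 (NF-kB1 deficient) and 30540, 69454 and 27960 (wild type). A listed 0 therefore need not mean absence: Gapdh, which every cell uses, was at 0 in 5 of 12 libraries. Log2 values of 0 or below were taken as 0 on the linear scale, so reads worth under 1 could not be listed. In the 3 NF-kB1-deficient imiquimod libraries, NF-kB1-deficient sham replicate 1 and wild-type sham replicate 2, 1 read was worth under 1. In that last library 2 reads could not be listed either. So a 0 in these 5 libraries may stand for 1 read (in the last for up to 2), and estimated reads are not exact. Nfkb1 stood at 5.41, 6.64 and 5.84 in NF-kB1-deficient imiquimod libraries, 7.34, 21.01 and 0 in wild-type imiquimod libraries, 8.82, 1.09 and 2.52 in NF-kB1-deficient sham libraries and 6.71, 4.38 and 1.24 in wild-type sham libraries. The genotypes overlapped in Nfkb1 under both treatments, so this gene gave no check of the labels. Of 9 T cell and gamma delta T cell markers, Tcrd and Thy1 were above 0 in all 12 libraries and Trdc was listed at 0 in all. The markers' summed value ran from 193 to 213 in NF-kB1-deficient imiquimod libraries, 75.1 to 98.0 in wild-type imiquimod libraries, 159 to 269 in NF-kB1-deficient sham libraries and 156 to 214 in wild-type sham libraries. B cell and neutrophil markers were at 0 throughout (5 of 5 and 4 of 4 genes), and no list of alpha beta T, plasma, myeloid, NK, keratinocyte or stromal markers summed above 18.6 in any library. No label says whether replicates are separate animals. The p-values below therefore rest on spread among these libraries, which may be technical. For most genes that spread was taken mainly from the trend over all tested genes, not from the gene itself. The fit had 8 residual and a median of 145.1 prior degrees of freedom.

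Promoter sequence was at hand for 8 of the 10 genes, all but Ier2 and Egr1. The windows are RefSeq's, on GRCm38.p6, from 250 bases before to 50 bases after the start. Of these, 4 are shown because the values below turn on Dusp2 and Ier5, while Fos and Dusp1 hold matches to the cAMP response element or its core. Capitals mark matches, on either strand, to the elements searched.
Dusp2, chr2:127335909-127336208, plus strand: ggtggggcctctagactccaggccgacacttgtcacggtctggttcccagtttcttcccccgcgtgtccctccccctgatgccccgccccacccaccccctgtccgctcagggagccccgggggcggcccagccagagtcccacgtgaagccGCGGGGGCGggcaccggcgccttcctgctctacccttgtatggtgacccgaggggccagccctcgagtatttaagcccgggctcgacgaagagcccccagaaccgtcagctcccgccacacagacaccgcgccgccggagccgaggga
Ier5, chr1:155099587-155099886, minus strand: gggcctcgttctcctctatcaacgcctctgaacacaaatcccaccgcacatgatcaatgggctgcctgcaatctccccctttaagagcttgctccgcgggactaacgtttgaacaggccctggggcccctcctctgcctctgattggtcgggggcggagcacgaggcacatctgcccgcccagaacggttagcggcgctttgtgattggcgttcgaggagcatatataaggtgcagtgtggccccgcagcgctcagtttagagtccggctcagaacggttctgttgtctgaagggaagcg
Fos, chr12:85473640-85473939, plus strand: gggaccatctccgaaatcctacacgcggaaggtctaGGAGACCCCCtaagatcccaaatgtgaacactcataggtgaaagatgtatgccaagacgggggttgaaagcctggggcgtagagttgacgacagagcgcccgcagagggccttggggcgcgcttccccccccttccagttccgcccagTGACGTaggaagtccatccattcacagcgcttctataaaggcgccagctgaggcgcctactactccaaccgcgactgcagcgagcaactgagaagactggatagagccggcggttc
Dusp1, chr17:26508423-26508722, minus strand: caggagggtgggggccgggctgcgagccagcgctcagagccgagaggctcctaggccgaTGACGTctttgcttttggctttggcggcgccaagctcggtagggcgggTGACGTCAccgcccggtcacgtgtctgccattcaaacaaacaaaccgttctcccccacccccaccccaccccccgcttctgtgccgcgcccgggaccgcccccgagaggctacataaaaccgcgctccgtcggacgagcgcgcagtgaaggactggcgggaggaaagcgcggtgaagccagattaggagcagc

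In Dusp2 the capitals are an EGR site (GCGNGGGCG) at -98 to -90, which Fosb holds at -50 to -42 and 5.55% of all 32851 windows hold somewhere. The full cAMP response element (TGACGTCA) was found in Dusp1 alone of the 8, at -143 to -136, and in 1.79% of all windows. Its core (TGACGT) was found again in Dusp1 at -191 to -186 and in Fos at -66 to -61, against 7.51% of all windows. The full element contains the core, so both searches overlap. An NF-kB site, searched by its consensus, was present in Fos at -214 to -205 and in Fosb at -188 to -179, both on the opposite strand, and in 4.51% of all windows. Ier5 and the windows of Jun, Junb and Jund held none of the elements searched. The CArG box (1.63% of all windows), the AP-1 site TGANTCA (7.81%) and the ETS core CCGGAA (14.9%) matched in 0 of the 8 windows. Sequence further than 250 bases upstream of the start was not searched, so a lack of matches does not show that a gene lacks the element. The RefSeq window of Jund (chr8:70697489-70697788) lies upstream of the gene model used for its coordinates here, and that of Dusp1 lies inside its gene model, so the positions given count from the RefSeq start. Median GC was 62.67% in the 8 windows, against 52.67% over all windows.

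**Figure D2:**
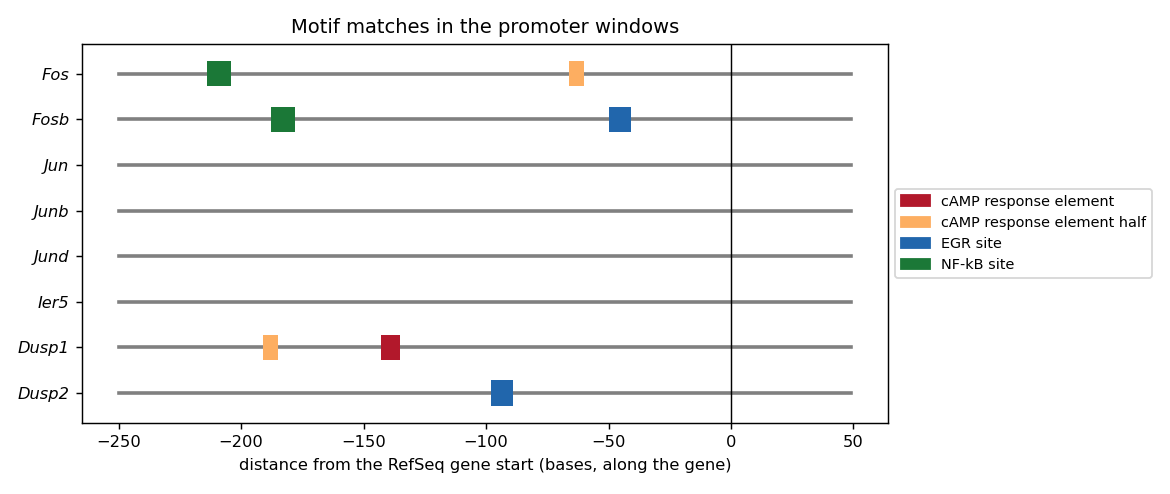
Matches to the searched elements in the 8 promoter windows, placed by distance in bases from the annotated start. Dusp2 and Fosb hold an EGR site, Fos and Fosb an NF-kB site, and Dusp1 and Fos the cAMP response element or its core.

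Jun, Junb, Jund, Ier2 and Ier5 each have 1 exon, which is 50% of the 10 genes, against 1.70% of 1528 tested genes with a coding transcript and 7.11% of 21901 protein-coding genes. The destabilizing pentamer ATTTA occurred at a median of 2.56 per kb of 3′ UTR in the 10 genes, against 1.52 in tested genes. The median number of copies was 2 in both sets, and the median 3′ UTR was shorter in the 10 genes (785 against 1181 bases). Dusp2 had the highest density of the 10 (6.89 per kb, 4 copies), followed by Dusp1 (5.80 per kb, 4 copies) and Fos (4.91 per kb, 4 copies), while Ier2 had 0. These are descriptions of the annotation and were not tested. On GRCm38 the protein-coding genes lie at chr12:85473890-85477273 (Fos), chr7:19302696-19310051 (Fosb), chr4:95049034-95052222 (Jun), chr8:84974484-84978718 (Junb) and chr8:70698949-70700616 (Jund). Ier2 lies at chr8:84661331-84662852, Ier5 at chr1:155096361-155099636, Dusp1 at chr17:26505590-26562128, Dusp2 at chr2:127336159-127338376 and Egr1 at chr18:34859823-34864984. Jun, Junb, Jund and Dusp1 have a gene on the opposite strand. Of the protein-coding partners, Prdx2 at Junb had a mean of 1.72, lower than that of Junb. Ergic1 at Dusp1 had a mean of 3.89, higher than the 2.22 of Dusp1 itself. Ergic1 was above 0 in 11 libraries and Dusp1 in 6. Whether the authors counted by strand is not stated in the labels. Whether opposite-strand reads entered the Dusp1 values was not tested.

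Dusp2, also called PAC-1, is a nuclear phosphatase of activated lymphocytes that acts on ERK and p38. It had normalized values of 30.0, 65.0 and 43.5 in NF-kB1-deficient imiquimod libraries, 5.24, 18.9 and 9.90 in wild-type imiquimod libraries, 47.0, 12.04 and 21.4 in NF-kB1-deficient sham libraries and 26.8, 58.1 and 48.4 in wild-type sham libraries. The wild-type imiquimod libraries lay below every library of NF-kB1-deficient imiquimod and of wild-type sham, but overlapped NF-kB1-deficient sham. Group means were 46.2 ± 17.6 in NF-kB1-deficient imiquimod, 11.4 ± 6.97 in wild-type imiquimod, 26.8 ± 18.1 in NF-kB1-deficient sham and 44.4 ± 16.05 in wild-type sham (SD, n = 3 each). In order of level, NF-kB1-deficient imiquimod and wild-type sham were within their spread of each other, and NF-kB1-deficient sham overlapped the group on each side.

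Dusp1, a phosphatase of JNK and p38 and a target of glucocorticoids and cAMP, stood at 1.001, 8.38 and 8.11 in NF-kB1-deficient imiquimod libraries, 0, 1.05 and 3.96 in wild-type imiquimod libraries, 0 in all 3 NF-kB1-deficient sham libraries, and 0, 4.15 and 0 in wild-type sham libraries. All 3 NF-kB1-deficient imiquimod libraries were above 0 and above the NF-kB1-deficient sham libraries. Every value rests on at most 12.5 estimated reads, and the mean was too low for the test.

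Ier5, a target of heat shock factor HSF1 that binds the phosphatase PP2A, had 13.8, 27.6 and 14.6 in NF-kB1-deficient imiquimod libraries, 1.05, 34.7 and 0 in wild-type imiquimod libraries, 23.2, 26.8 and 28.3 in NF-kB1-deficient sham libraries and 47.0, 13.9 and 36.0 in wild-type sham libraries. Wild-type imiquimod libraries 1 and 3 were lower than all other libraries, and replicate 2 of that group was the third highest of all 12. The groups therefore overlapped in every comparison of Ier5.

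Ier2, a nuclear early response protein, stood at 7.01, 9.43 and 3.57 in NF-kB1-deficient imiquimod libraries, 0, 2.63 and 0 in wild-type imiquimod libraries, 0, 2.19 and 0 in NF-kB1-deficient sham libraries and 7.27, 3.66 and 14.3 in wild-type sham libraries. NF-kB1-deficient imiquimod and wild-type sham libraries were all above the other 6 libraries. With a mean of 4.17 over the 12 libraries it was below the limit for the test. Egr1, a zinc finger factor induced through ERK, had 0, 11.3 and 2.59 in NF-kB1-deficient imiquimod libraries, 1.05, 6.32 and 0 in wild-type imiquimod libraries, 0, 2.19 and 13.8 in NF-kB1-deficient sham libraries and 5.59, 2.44 and 0 in wild-type sham libraries. Its groups overlapped in every comparison, and its mean of 3.78 also left it untested.

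Fos, the inducible partner of the Jun proteins, stood at 0, 7.68 and 12.3 in NF-kB1-deficient imiquimod libraries, 4.41, 0 and 26.4 in NF-kB1-deficient sham libraries and 4.47, 2.44 and 22.4 in wild-type sham libraries. In wild-type imiquimod it was listed at 0 in all 3 libraries. Replicate 3 of each sham group was the highest of its group, with 21 and 18 estimated reads in NF-kB1-deficient and wild-type sham. Fosb, a relative of Fos with a truncated splice form known from neurons, was above 0 in 3 of 12 libraries: 2.79 in NF-kB1-deficient imiquimod replicate 2, and 6.15 and 4.64 in wild-type sham replicates 1 and 2.

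Jun, the JNK substrate at the core of AP-1, had 4.26, 13.3 and 10.1 in NF-kB1-deficient imiquimod libraries, 0, 0 and 3.96 in wild-type imiquimod libraries, 4.41, 10.4 and 23.9 in NF-kB1-deficient sham libraries and 20.7, 8.54 and 19.3 in wild-type sham libraries. The highest wild-type imiquimod library was below the lowest of each other group, on 2 estimated reads. Junb, which with BATF takes part in T helper 17 cell programmes, had 22.3, 9.43 and 37.6 in NF-kB1-deficient imiquimod libraries, 3.14, 3.16 and 14.9 in wild-type imiquimod libraries, 15.8, 34.5 and 45.9 in NF-kB1-deficient sham libraries and 7.27, 32.5 and 37.3 in wild-type sham libraries. Its mean was 23.1 ± 14.1 in NF-kB1-deficient imiquimod, 7.05 ± 6.76 in wild-type imiquimod, 32.1 ± 15.2 in NF-kB1-deficient sham and 25.7 ± 16.1 in wild-type sham (SD, n = 3 each). Wild-type imiquimod replicate 3 reached into the range of 2 of the 3 other groups.

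Jund, the family member known for steady expression in resting cells, had 6.51, 17.8 and 14.9 in NF-kB1-deficient imiquimod libraries, 8.09, 13.1 and 12.6 in NF-kB1-deficient sham libraries and 2.24, 6.35 and 0 in wild-type sham libraries. It was listed at 0 in all 3 wild-type imiquimod libraries. All 6 NF-kB1-deficient libraries exceeded all 6 wild-type libraries, but narrowly. The lowest of the former was 6.51 and the highest of the latter 6.35, each on 13 estimated reads. How many of all tested genes part the genotypes in this way was not counted.

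**Figure D3:**
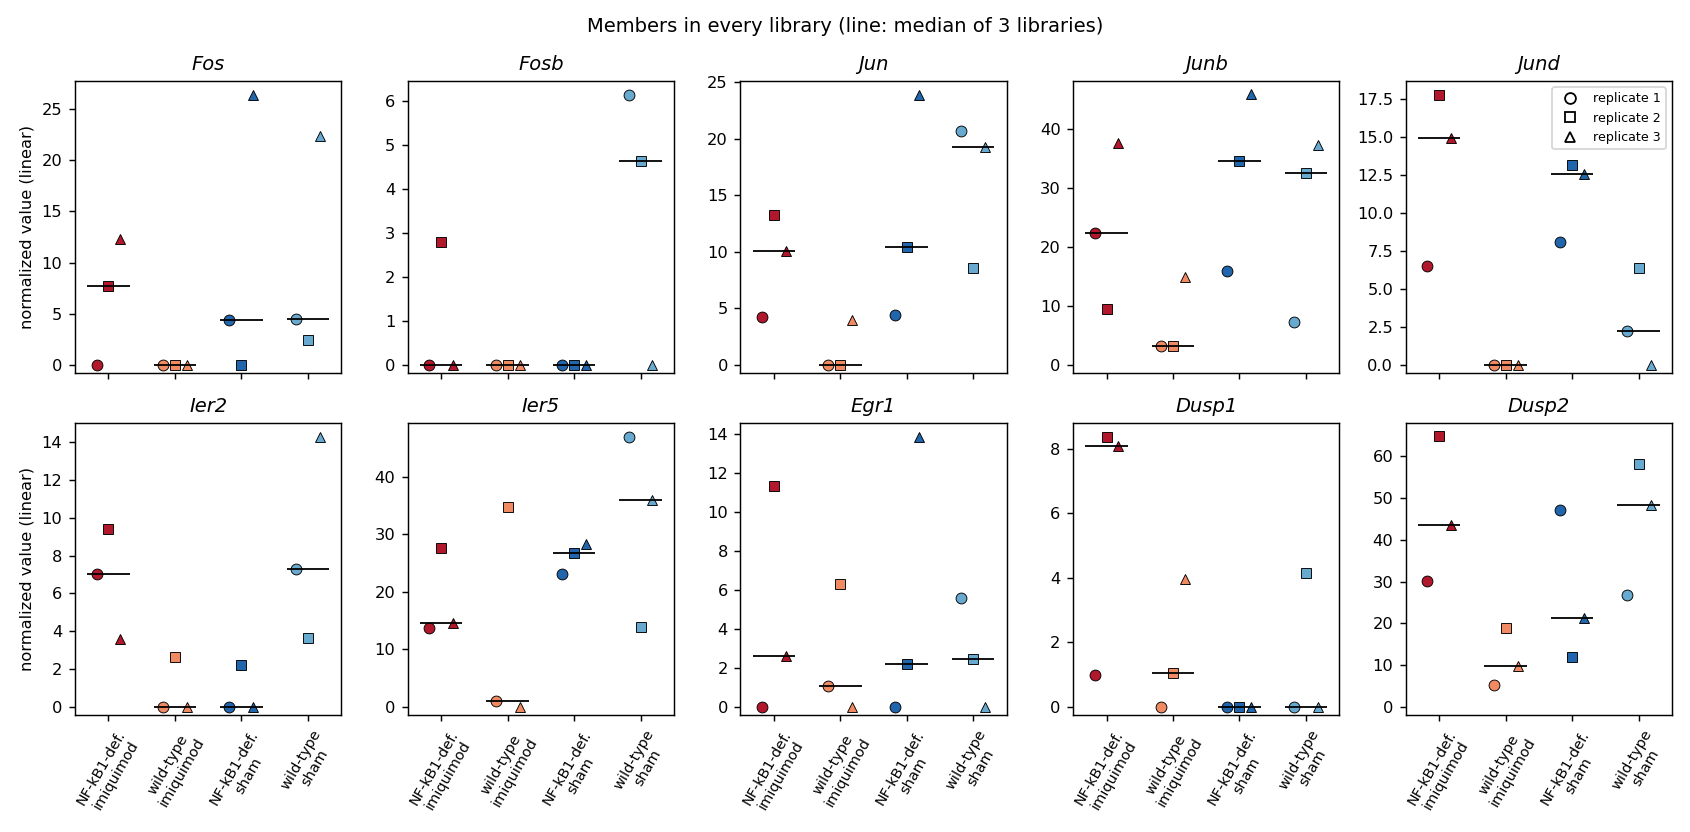
Normalized value of each of the 10 genes in each of the 12 libraries, with 1 panel per gene and 1 point per library. Dusp2 and Jun are lower in every wild-type imiquimod library than in any NF-kB1-deficient imiquimod or wild-type sham library, and Fos and Jund are listed at 0 in all 3 wild-type imiquimod libraries. Jund is higher in every NF-kB1-deficient library than in any wild-type one, though narrowly (lowest 6.51 against highest 6.35).

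The effect of imiquimod in wild-type cells was read from the wild-type imiquimod libraries against the wild-type sham libraries. Of the 6 tested genes, 2 fell and 0 rose at an adjusted p under 0.05 in limma with the Benjamini-Hochberg adjustment, while 1.59% of all tested genes fell, 1.65% rose and 3.25% were called in all. Dusp2 fell by 1.97 on the log2 scale (SE 0.58, adjusted p = 0.0358), lower in 3 of 3 libraries. Ier5 fell by 2.83 (SE 0.81, adjusted p = 0.0290), although its groups overlapped through wild-type imiquimod replicate 2. The fold changes are on the log2(normalized value + 1) scale, which understates the change of low genes.

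Among the AP-1 genes of that comparison, the estimate was -3.24 for Jun (log2, SE 1.09, adjusted p = 0.0762) and -1.76 for Junb (SE 0.74, adjusted p = 0.155). Neither passed the threshold. Fos and Jund, listed at 0 in the wild-type imiquimod group, had adjusted p of 0.199 and 0.516 in limma, and no fold is given. Over the tested genes with no group at 0 the median log2 fold change was -2.40 (4 genes), against -0.06 over all such genes. Estimates were negative for 6 of 6, against 51.9% of all tested genes. Those of Fos and Jund, at 0 in wild-type imiquimod, could not be positive. At an unadjusted p under 0.05, 5 of the 6 were lower, Fos among them, against 19.9% of all tested genes in either direction. Counting all 10 genes, Dusp2, Jun, Fos and Ier2 lay wholly below wild-type sham and 6 overlapped, while 10.8% of tested genes lay wholly below and 10.7% wholly above.

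Both wild-type calls depended on single libraries. For Dusp2 the limma adjusted p became 0.136 or 0.0504 on leaving out wild-type imiquimod replicate 1 or 3, 0.159 or 0.125 on leaving out wild-type sham replicate 2 or 3, and 0.0522 on leaving out NF-kB1-deficient imiquimod replicate 2. For Ier5 it became 0.116 or 0.182 on leaving out wild-type imiquimod replicate 1 or 3, and 0.160 or 0.119 on leaving out wild-type sham replicate 1 or 3. Without wild-type imiquimod replicate 2 the Ier5 change was -4.38 (limma adjusted p = 0.000502), and without replicate 3 of that group Jun was called (-4.01, adjusted p = 0.0309). Neither Dusp2 nor Ier5 was called with a pseudocount of 0.1, with no filter on low values, without trend and robust, or in a fit of the compared groups alone. The gamma delta T cell markers were lower in the same libraries, and the 12 heat shock genes summed to 351 to 514 in wild-type imiquimod libraries, against 127 to 188 in wild-type sham libraries. Without Hsp90ab1 the remaining 11 summed to 70.0 to 182 in wild-type imiquimod and 48.6 to 72.9 in wild-type sham libraries, with overlap. Their part in the result was not tested. In bulk RNA, fewer cells expressing a gene and less RNA per cell cannot be told apart.

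In NF-kB1-deficient cells imiquimod was compared with sham in the same way. Of the 6 tested genes 0 were called by limma, as were 0% of all tested genes, and 0 of the 6 reached an unadjusted p under 0.05 (3.37% of all tested genes did). The log2 fold changes were 0.90 ± 0.58 for Dusp2, 0.12 ± 1.23 for Jund, -0.12 ± 1.37 for Fos, -0.30 ± 1.09 for Jun, -0.53 ± 0.74 for Junb and -0.53 ± 0.81 for Ier5 (estimate ± SE, adjusted p = 0.996 in limma for each). Negative estimates made up 4 of the 6, against 44% of all tested genes. The 95% intervals were wide, from -0.25 to 2.05 for Dusp2 and from -2.13 to 1.07 for Ier5. Ier2 and Dusp1, both untested, lay wholly above their sham libraries and the other 8 genes overlapped, while 6.11% of tested genes lay wholly above and 5.6% wholly below. With no filter on low values, Ier2 had a log2 fold change of 2.30 (adjusted p = 0.845 in limma), and Dusp1 had the same adjusted p.

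The genotypes were next compared within imiquimod, NF-kB1 deficient against wild type. Dusp2 was higher in NF-kB1-deficient cells by 2.02 on the log2 scale (SE 0.58, limma adjusted p = 0.0424), above in 3 of 3 libraries, and was the 1 call among the 6 tested genes. Over all tested genes, 1.27% were called higher, 0.509% lower and 1.78% in all. The log2 estimate was 2.16 for Ier5 (SE 0.81, adjusted p = 0.163), 2.46 for Jun (SE 1.09, adjusted p = 0.257) and 1.70 for Junb (SE 0.74, adjusted p = 0.253). Jund and Fos had limma adjusted p of 0.101 and 0.465. The median log2 fold change over tested genes with no group at 0 was 2.09 (4 genes), against 0.13 over all such genes, and 5 of the 6 were higher at an unadjusted p under 0.05 (14.3% of all tested genes in either direction). Negative estimates made up 0 of the 6 and 46.3% of all tested genes. Fos and Jund, at 0 in wild-type imiquimod, could not have a negative estimate, and Jund is among the 5 that were higher.

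Dusp2, Jun, Jund and Ier2 lay wholly above wild-type imiquimod and the other 6 of the 10 genes overlapped, while 10.8% of tested genes lay wholly above and 10.3% wholly below. This comparison shares the wild-type imiquimod libraries with the wild-type response to imiquimod, so both carry any feature of those 3 libraries. The summed heat shock genes stood at 167 to 248 in NF-kB1-deficient imiquimod and 351 to 514 in wild-type imiquimod libraries or, without Hsp90ab1, at 66.3 to 93.9 in NF-kB1-deficient imiquimod and 70.0 to 182 in wild-type imiquimod libraries. The T cell markers stood at 193 to 213 in NF-kB1-deficient imiquimod and 75.1 to 98.0 in wild-type imiquimod libraries. Estimated depth was also higher in every NF-kB1-deficient imiquimod library than in any wild-type imiquimod library. Their part in the result was not tested. The Dusp2 call was lost on leaving out any 1 of 8 libraries. The limma adjusted p was then 0.0731, 0.359 or 0.159 for NF-kB1-deficient imiquimod replicates 1, 2 and 3, 0.193 or 0.0570 for wild-type imiquimod replicates 1 and 3, 0.0639 for NF-kB1-deficient sham replicate 1, and 0.0677 or 0.0511 for wild-type sham replicates 2 and 3. Without wild-type imiquimod replicate 2, Ier5 was called as well (3.71, limma adjusted p = 0.00690).

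Under sham cream the genotypes gave 0 calls among the 6 tested genes, as among all tested genes (0%), and 0 of the 6 had an unadjusted p under 0.05 in limma (6.11% of all tested genes did). Jund had the largest estimate, at 2.07 ± 1.23 (SE, adjusted p = 0.914 in limma), with NF-kB1-deficient above wild-type libraries in 3 of 3. Dusp2 had -0.84 ± 0.58 (adjusted p = 0.947 in limma) and Junb 0.47 ± 0.74 (adjusted p = 0.978 in limma). Negative estimates made up 4 of the 6, against 51.4% of all tested genes. Jund lay wholly above wild type and Ier2 wholly below, and the other 8 genes overlapped, while 4.71% and 4.65% of tested genes did so.

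The difference between the imiquimod responses of the genotypes, NF-kB1 deficient minus wild type, was tested in the same model. Of the 6 genes 0 were called, against 0.446% of all tested genes (0.191% higher and 0.255% lower). For Dusp2 the difference was 2.87 on the log2 scale (SE 0.82, 95% interval 1.24 to 4.49, limma adjusted p = 0.102), the nearest to the threshold of the 6. It was 2.94 ± 1.54 for Jun, 2.31 ± 1.14 for Ier5 and 1.23 ± 1.05 for Junb (SE, limma adjusted p = 0.489, 0.458 and 0.739), and Fos and Jund had adjusted p of 0.640 and 0.797. Unadjusted, 2 of the 6 were under 0.05, against 10.8% of all tested genes, and 0 of the 6 estimates were negative, against 45%. Dusp2 was called without wild-type imiquimod replicate 2 (3.29, limma adjusted p = 0.0334), with a minimum mean of 20 (0.0306) and with equal library totals (0.0439). In the fit as set, a difference between the genotypes in the imiquimod response was not shown for any of these genes.

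**Figure D4:**
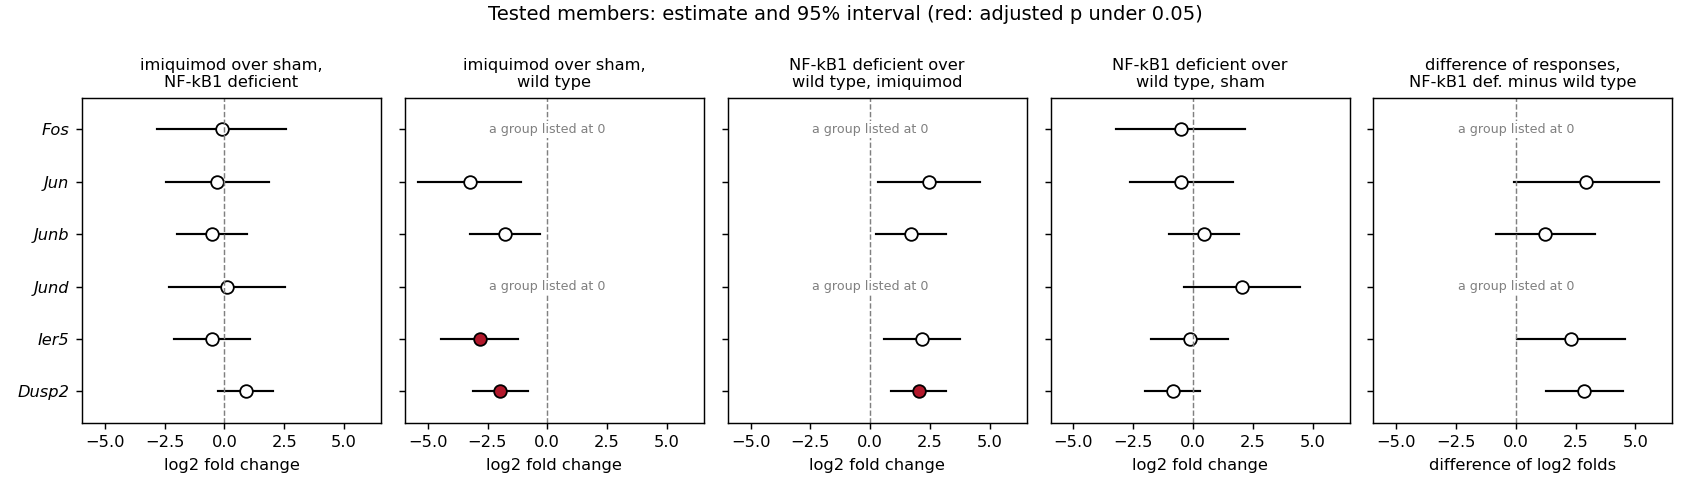
Log2 fold change with its 95% interval for the 6 tested genes in each comparison, and the difference of responses in the last panel; filled points have an adjusted p under 0.05. Dusp2 and Ier5 are called in the wild-type response and Dusp2 between genotypes under imiquimod, and no estimate is drawn where a group is listed at 0.

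Other genes of the pathway were followed from lists of AP-1 partners, immediate early genes, phosphatases, kinases and regulators, counted for imiquimod against sham in wild-type cells. Among 17 other AP-1 genes, Atf4 and Maf were tested and neither was called or under 0.05 unadjusted (log2 fold changes 0.43 and 0.10). Of 32 other immediate early genes 7 were tested, 5 with a negative estimate, 2 lower at an unadjusted p under 0.05 in limma, and 0 called. Irf1, an interferon response factor, was nearest, at 2.10, 7.37 and 1.98 in wild-type imiquimod libraries and 20.1, 19.0 and 30.4 in wild-type sham libraries, without overlap (log2 fold change -2.48 ± 0.82 SE, limma adjusted p = 0.0720). Sik1, a kinase that restrains CREB coactivators, had -2.49 ± 1.07 (SE, limma adjusted p = 0.156), also without overlap. Mcl1, an anti-apoptotic protein, had -0.94 and Klf6, a zinc finger factor, -0.57, and their groups overlapped.

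Of 18 other dual-specificity phosphatases 2 were tested, 1 lower at an unadjusted p under 0.05 in limma, and 0 called. Dusp6, the cytoplasmic ERK phosphatase, had 5.24, 0 and 0 in wild-type imiquimod libraries and 8.94, 5.86 and 26.7 in wild-type sham libraries (log2 fold change -2.75 ± 1.25 SE, limma adjusted p = 0.185). Dusp11, which acts on RNA 5′ ends, had -2.15, with overlapping groups. Of 51 genes of the MAP kinase cascades 12 were tested, 10 with a negative estimate and 1 lower at an unadjusted p under 0.05, and 0 were called. Their median was -1.05, against -0.07 over all tested genes. Among those of low p were Map4k2, a kinase upstream of JNK (-2.87 ± 1.15, adjusted p = 0.133), Nras, the small GTPase (-1.74), and Rps6ka3, the ERK-activated kinase RSK2 (-1.53). Of 24 SRF, ETS, CREB and NFAT genes 9 were tested, 2 lower at an unadjusted p under 0.05, and 0 called. Elf1, an ETS factor of lymphocytes, had -2.42 ± 0.85 (adjusted p = 0.0933) and Creb1 -2.59 ± 1.04 (adjusted p = 0.135), both wholly below sham. Nfatc3 had -1.50 and Ets1 -1.18, with overlap.

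Of 20 feedback regulators 4 were tested, all with a negative estimate, and 1 fell. Ptpn22, a phosphatase that restrains antigen receptor signalling, had 1.53, 0 and 2.96 in wild-type imiquimod libraries and 19.2, 22.7 and 39.7 in wild-type sham libraries (log2 fold change -3.64 ± 1.07 SE, limma adjusted p = 0.0358). Ptprc, the receptor phosphatase CD45, had -1.59 ± 0.51 (adjusted p = 0.0628) and Nfkbia, the NF-kB inhibitor IkB alpha, -0.86 ± 0.48 (adjusted p = 0.312), both wholly below sham, and Ptpn7, an ERK phosphatase of lymphocytes, had -0.34 with overlap. In the other 4 contrasts 0 genes of these 6 lists were called by limma. Between genotypes under imiquimod, 7 of 7 immediate early, 10 of 12 cascade, 8 of 9 transcription factor, 4 of 4 feedback, 1 of 2 AP-1 and 1 of 2 phosphatase genes had positive estimates, against 844 of 1571 tested genes. The 6 lists did not share 1 pattern in their summed values. The feedback list was 140 to 168 in NF-kB1-deficient imiquimod libraries, 52.5 to 65.8 in wild-type imiquimod libraries and 142 to 170 in wild-type sham libraries. The other AP-1 genes were 39.6 to 43.7 in NF-kB1-deficient imiquimod, 50.5 to 67.9 in wild-type imiquimod and 27.95 to 49.7 in wild-type sham libraries, so wild-type imiquimod was highest there. The other phosphatases were 5.59 to 16.5 in NF-kB1-deficient imiquimod and 13.4 to 40.4 in wild-type imiquimod libraries, and up to 47.2 in wild-type sham. For the other immediate early, cascade and transcription factor lists the imiquimod groups overlapped.

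Heat shock genes, which cell dissociation is also known to raise, were followed as well. Of 12, 7 were tested, and in wild-type cells under imiquimod Hsp90ab1, the constitutive HSP90 beta chaperone, rose by 1.58 on the log2 scale (SE 0.31, limma adjusted p = 0.000175). Its values were 236, 287 and 332 in wild-type imiquimod libraries and 130, 53.9 and 117 in wild-type sham libraries. Under imiquimod it was lower in NF-kB1-deficient than in wild-type cells (log2 estimate -1.26 ± 0.31 SE, adjusted p = 0.0124 in limma). It was the 1 call among the 7 in each of these comparisons. In the wild-type response 5 of the 7 had a positive estimate, and 2 were higher at an unadjusted p under 0.05 in limma. Wholly above sham lay 3 of the 7, against 10.7% of all tested genes. Hspe1 had an estimate of 2.14 and Hspa8 of 1.89, both wholly above sham but not called. The 2 negative estimates were -1.93 for Dnajb1, an HSP70 co-chaperone, and -0.78 for Dnaja1, another, with overlap.

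**Figure D5:**
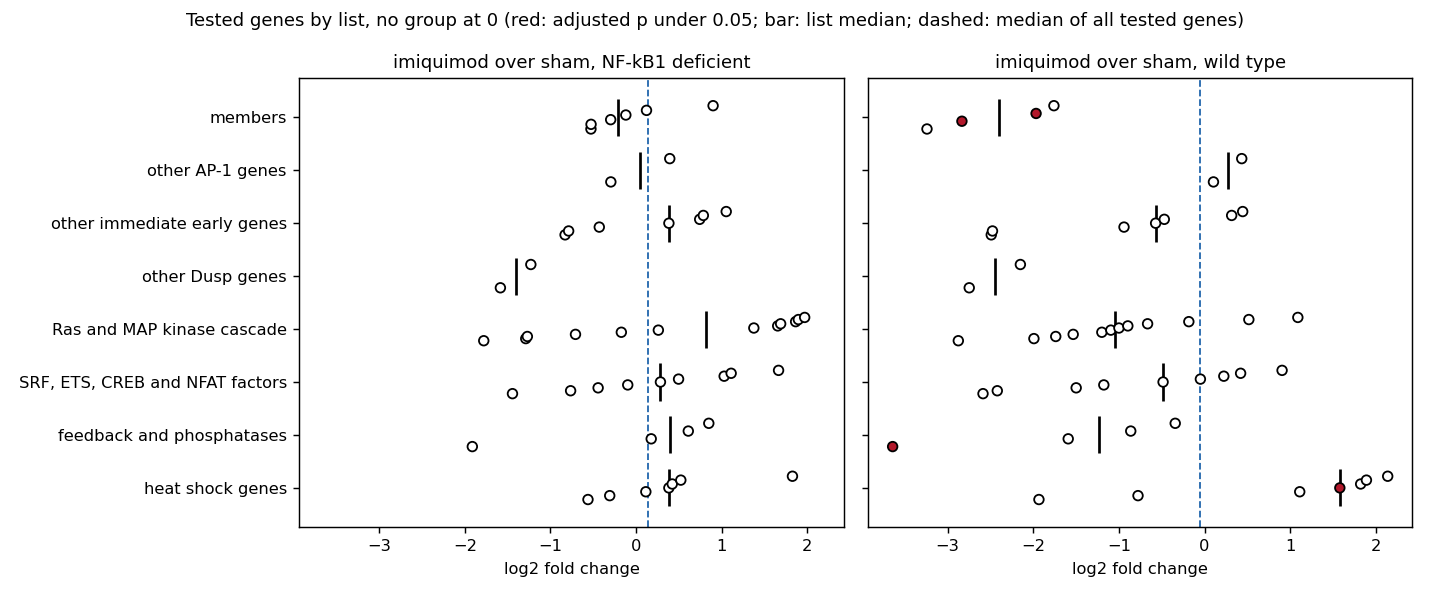
Log2 fold change of imiquimod over sham for the tested genes of each list with no group at 0, in NF-kB1-deficient and in wild-type cells; points are genes, bars list medians, and the dashed line the median of all tested genes with no group at 0. In wild-type cells Dusp2, Ier5, Ptpn22 and Hsp90ab1 are called, of which Hsp90ab1 alone lies above 0, and no gene is called in NF-kB1-deficient cells.

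For the 3 genes with a mean of at least 20, the genes most alike across the 12 libraries were sought by the root mean square difference of centred log2(normalized value + 1). Nearest to Dusp2 were Mndal (0.56), Gramd4 (0.59) and Lasp1 (0.59), where the median over all tested genes was 1.56. Nearest to Ier5 were Fnbp1 (0.67), Ap1s3 (0.76) and H2-Q4 (0.76), against a median of 2.03. Fnbp1 had 1.05, 18.4 and 0 in wild-type imiquimod libraries and, like Ier5, was high there in replicate 2 alone. Nearest to Junb were Mef2d (0.72), Cytip (0.72) and Chmp4b (0.78), against a median of 1.73. Among the 6 tested genes of the set, the nearest to Junb was Jun, at rank 70, the nearest to Ier5 was Dusp2, at rank 112, and the nearest to Dusp2 was Junb, at rank 305.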

How the data were processed

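RNA from the isolated cells was made into libraries by QuantSeq 3′ FWD, as the labels' protocols state, so reads come from transcript 3′ ends and do not scale with length. The authors deposited a single table of log2 normalized read counts for 12 libraries, and mm10 is the build per the submitters' processing notes. No source used here names the aligner, counter, annotation or normalization tool. Columns were matched to samples by title, 0 value columns were left unused, and 0 of 66 library pairs held identical values.

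Log2 values were exponentiated to a linear scale, and log2 values of 0 or below were set to 0. Low values fell on steps, from which 1 read was estimated at 0.488 to 1.98. Of values under 20 reads, 71.2% to 80.2% were whole to within 0.01 read, which did not allow a count test.

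Log2(value + 1) was tested with limma 3.58.1 in R 4.3.3 (data.table package, version 1.17.8; trend and robust) over 1571 genes with a mean of at least 5, in 1 fit of all 12 libraries with 8 residual and a median of 145.1 prior degrees of freedom. Benjamini-Hochberg adjustment ran over all 1571 genes in each of 5 comparisons, and genes were called at an adjusted p under 0.05. Standard errors (SE) are moderated, and intervals cover 95%.

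The 10 genes and the lists were chosen with earlier results of these data known. All 10 are named; of the pathway lists, every called gene and up to 4 further by lowest p in wild-type imiquimod against sham are named. A gene that this rule would name is not reported here. Likeness was measured for genes with a mean of at least 20, naming the 3 nearest. Gene models are GENCODE M21 on GRCm38, and promoters are RefSeq's. The 20 alternatives changed the pseudocount, filter, scaling, variance model, groups fitted, replicate block, or left out 1 library. Figures were drawn with matplotlib 3.10.9.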

Additional observations from a re-analysis of the deposited data

Results flagged for a closer look

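The values of Ier2 lay wholly above sham under imiquimod in NF-kB1-deficient cells and wholly below sham in wild-type cells, and it is listed here for that pattern. How many of all genes show the same pattern was not counted. NF-kB1-deficient cells had 7.01, 9.43 and 3.57 with imiquimod, against 0, 2.19 and 0 with sham. Wild-type cells had 0, 2.63 and 0 with imiquimod, against 7.27, 3.66 and 14.3 with sham. The difference of the responses was 4.75 on the log2(normalized value + 1) scale (SE 1.75). It was not tested among the 1571 genes, because the mean of Ier2 is under the filter. With no filter, over 9732 genes, limma gave an unadjusted p of 0.00668 and an adjusted p of 0.758. The unadjusted p comes from the same values for which Ier2 was listed, so it adds no separate evidence. Neither response passed on its own in that fit (2.30, adjusted p = 0.845 in NF-kB1-deficient cells, and -2.45, adjusted p = 0.696 in wild-type cells). The wild-type imiquimod and NF-kB1-deficient sham groups rest on 2.5 and 2 estimated reads in all, not counting reads that a listed 0 can hide.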

How the results depend on the processing

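Of the 6 tested genes, the wild-type response to imiquimod gave 2 calls. A pseudocount of 0.1, no filter, no trend or robust, and the compared groups alone each gave 0, and a pseudocount of 10 or a minimum mean of 20 each gave 1. Leaving out 1 library gave 0 to 2. Between genotypes under imiquimod the 1 call became 0 with a pseudocount of 0.1, no filter, no trend or robust, and the compared groups alone, and leaving out 1 library gave 0 to 2. For the difference of responses, with 0 calls, a minimum mean of 20 and equal library totals each gave 1, and leaving out 1 library gave 0 to 1. The other comparisons gave 0 calls throughout. Dusp2 in the wild-type response was called in 11 of 20 alternatives (log2 fold change -2.39 to -1.35, adjusted p 0.0138 to 0.462 in limma), and Ier5 in 10 of 20 (-4.38 to -1.22, 0.000502 to 0.217). Dusp2 between genotypes under imiquimod was called in 8 of 20 (1.40 to 2.45, 0.0165 to 0.679). No sign of a tested gene turned in these 2 comparisons or in the difference of responses. It did, always without a call, when 1 library was left out. Between genotypes under sham, Junb ran from -0.24 to 0.89, Ier5 from -0.64 to 0.20 (0.014 without wild-type sham replicate 3), Fos from -1.71 to 0.68 (0.29 without wild-type sham replicate 3) and Jun from -1.04 to 0.064. For imiquimod against sham in NF-kB1-deficient cells, Jund ran from -0.14 to 0.52 (-0.081 without sham replicate 1, -0.019 without imiquimod replicate 3), Fos from -1.32 to 1.07 (1.02 without imiquimod replicate 1) and Jun from -0.84 to 0.26 (0.12 without imiquimod replicate 1).

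Over all genes the wild-type response had 51 calls, against 26 with a pseudocount of 0.1, 11 with no filter, 18 with no trend or robust, 28 with the compared groups alone, and 23 to 72 with 1 library left out. Between genotypes under imiquimod there were 28, against 18, 3, 0 and 17 in the same settings and 4 to 42 with 1 library left out. For the difference of responses there were 7, against 1 with no filter, 0 with no trend or robust, 13 with a minimum mean of 20 and 2 to 12 with 1 library left out. Equal library totals moved the median of all genes by -0.12 in the wild-type response, by 0.18 between genotypes under imiquimod and by 0.15 in the difference of responses. The calls were then 19 higher and 29 lower, against 26 and 25, in the wild-type response, and 25 higher and 5 lower, against 20 and 8, between genotypes under imiquimod. With a replicate block the wild-type response gave 2 calls among the 6 genes and 55 over all genes, and the genotypes under imiquimod gave 1 and 32, so no call of the 6 genes changed. The numbers were not taken as pairs, because no label says that a number marks a shared animal, litter or day. Same-numbered libraries did not deviate together (correlations -0.0098 to 0.061). Why the results moved was not tested, beyond the number of genes or libraries that a setting leaves. At the estimated depths 1 read is worth up to 1.98, so Fosb, Dusp1, Egr1 and Ier2 rest on few reads in every library.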
